A study of Mus musculus with 24 samples.

Results

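The proteasome was followed through its genes, taken as all rows of the deposited expression table whose symbol begins with *Psma*, *Psmb*, *Psmc*, *Psmd*, *Psme*, *Psmf* or *Psmg* and ends in a number, with the inducible catalytic genes *Psmb8* and *Psmb9* left out. This gave 46 of the 49452 genes of the table. The alpha and beta rings of the core particle took up 14 of them and the base and lid of the regulatory particle 17, and the remaining 15 encode activators, an inhibitor, assembly factors and tissue-restricted core subunits. Of the 46 genes, 44 passed the filter on low values in every comparison, whereas *Psma8* and *Psmb11*, core subunits known from testis and thymus, stayed at or below 0.24 FPKM in the mean of each group and were not tested.

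The proteasome is the protease that removes proteins tagged with ubiquitin. Its core particle is a barrel of stacked rings, with alpha subunits that gate the entry and beta subunits that line the chamber and carry the catalytic sites, and the regulatory particle caps the barrel, recognises ubiquitin, removes it and unfolds the substrate with a ring of ATPases. In brown fat the abundance of these subunits is known to be adjusted through the transcription factor NFE2L1, which is itself processed at the endoplasmic reticulum before it enters the nucleus.

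The study asked what the long noncoding RNA *H19* does in brown against white adipocytes. Precursor cells of the stromal vascular fraction were isolated from interscapular brown (BAT) and perigonadal visceral white (vWAT) fat of young male C57BL/6 mice, with BAT of several animals pooled where cell numbers required it, and were nucleofected with a siRNA against *H19* (siH19) or a non-targeting control siRNA (siCtrl). RNA was sequenced before (d0) and at day 3 (d3) of adipogenic differentiation, in 3 libraries for each of the 8 groups of depot, siRNA and day (24 in all). Insulin, dexamethasone, rosiglitazone and IBMX were used to induce the cells, with indomethacin and triiodothyronine named for BAT, so that depot and medium cannot be told apart at d3. The labels also number the BAT and the vWAT libraries as separate series, so that depot and library series cannot be told apart on either day. Nothing states that replicate libraries came from separate animals or cultures, and p-values therefore measure the spread between these libraries, which may be technical.

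Levels are FPKM, a fragment number scaled to the length of the transcript and the mapped fragments of the library. Division by length allows genes to be set side by side, as far as the assumed length and the assignment of shared fragments hold. Neither was tested. The number of fragments per library is unknown, and the relative depth read from the steps between low values was 0.841 to 1.00 in BAT and 1.03 to 1.19 in vWAT libraries. *H19* was at 130.3 ± 27.1 FPKM (SD, n = 3) in BAT siCtrl and 4.36 ± 1.33 FPKM in BAT siH19 at d0, and at 89.8 ± 8.76 and 13.7 ± 2.79 FPKM at d3. In vWAT it was at 11.7 ± 0.528 and 1.21 ± 0.566 FPKM at d0 and at 8.59 ± 0.361 and 0.528 ± 0.380 FPKM at d3, so that all siH19 libraries lay below the siCtrl libraries of their depot and day. All 6 adipocyte markers (*Adipoq*, *Fabp4*, *Plin1*, *Cidec*, *Lpl*, *Pparg*) rose from d0 to d3 in both depots. *Ucp1*, the uncoupling protein of brown adipocytes, was at 12.1 FPKM in BAT siCtrl at d3 and was listed at 0 in the mean of every vWAT group. These are bulk samples, in which fewer cells of a type and less RNA per cell cannot be told apart.

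The windows around the transcription starts of 4 members are shown because the results below turn on these genes: *Psma1* and *Psmb5* rose most among the core subunits, *Psmd4* most among the regulatory subunits, and *Psmc6* had the lowest log2 fold change of the regulatory subunits in BAT siCtrl. Each has 300 bases around the RefSeq start on GRCm38.p6, most of them upstream of it, 5′ to 3′ on the strand of the gene. They lie at chr7:114276067-114276366 (minus strand), chr14:54617946-54618245 (minus strand), chr3:95042565-95042864 (minus strand) and chr14:45329574-45329873 (plus strand), in this order. Capitals mark the core of the antioxidant response element (TGACNNNGC), to which NFE2L1 and its relatives are known to bind, and the CCAAT box (CCAAT), each searched on both strands, so that a match on the other strand is seen as its reverse complement, ATTGG for the CCAAT box.
Psma1: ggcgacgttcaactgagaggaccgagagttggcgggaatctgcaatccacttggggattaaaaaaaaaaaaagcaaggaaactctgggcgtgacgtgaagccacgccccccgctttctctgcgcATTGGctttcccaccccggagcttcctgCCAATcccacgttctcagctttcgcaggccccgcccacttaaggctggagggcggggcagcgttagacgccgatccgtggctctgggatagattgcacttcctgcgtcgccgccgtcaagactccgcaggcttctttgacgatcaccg
Psmb5: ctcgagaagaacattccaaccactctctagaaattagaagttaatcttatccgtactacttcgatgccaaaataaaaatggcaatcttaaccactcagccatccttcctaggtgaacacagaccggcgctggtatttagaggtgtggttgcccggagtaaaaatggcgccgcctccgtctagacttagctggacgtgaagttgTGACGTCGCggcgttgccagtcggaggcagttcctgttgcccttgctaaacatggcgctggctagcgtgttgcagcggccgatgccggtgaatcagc
Psmd4: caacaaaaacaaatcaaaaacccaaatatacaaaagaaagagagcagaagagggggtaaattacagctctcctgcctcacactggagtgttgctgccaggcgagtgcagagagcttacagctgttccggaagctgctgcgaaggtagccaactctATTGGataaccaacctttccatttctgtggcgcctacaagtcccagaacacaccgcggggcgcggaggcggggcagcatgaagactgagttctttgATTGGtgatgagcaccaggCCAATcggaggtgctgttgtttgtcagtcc
Psmc6: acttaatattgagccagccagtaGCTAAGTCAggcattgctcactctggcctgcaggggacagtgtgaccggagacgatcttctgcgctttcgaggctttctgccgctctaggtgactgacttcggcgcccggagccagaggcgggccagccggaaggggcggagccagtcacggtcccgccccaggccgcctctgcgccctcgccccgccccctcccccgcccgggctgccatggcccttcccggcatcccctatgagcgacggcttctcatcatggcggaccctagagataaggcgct
*Psma1* held 2 CCAAT boxes and no response element core, and *Psmd4* held 3 CCAAT boxes. *Psmb5* and *Psmc6* each held 1 response element core and no CCAAT box. Windows were at hand for 38 of the 46 members (41 windows). The response element core was found in 14.6% of the member windows and in 12.4% of all 32851 windows of 300 bases, and the CCAAT box in 31.7% and 37.4%. A CCAAT box was present in 6 of the 12 core windows and 4 of the 15 regulatory windows. The GC box (GGGCGG, either strand), the motif of Sp-family factors, was found in 56.1% of member windows and 35.7% of all windows. These shares describe letters in a window and do not show binding.

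Before differentiation, the core subunits of BAT siCtrl cells spanned a range set at its upper end by *Psmb4*, a noncatalytic beta subunit, at 468.7 FPKM, and at its lower end by *Psma5*, an alpha subunit, at 90.7 FPKM. *Psma1*, a subunit of the alpha ring, was next to the bottom at 95.0 ± 0.949 FPKM (SD, n = 3), rank 13 of the 14 core genes, and made up 4.17% of their summed level. The regulatory subunits ran from 65.6 FPKM for *Psmd12*, a lid subunit, to 229.9 FPKM for the ATPase *Psmc3*. The assembly factors, the inhibitor *Psmf1* and the inducible subunit *Psmb10* were lower, between 14.4 and 34.8 FPKM. The activator subunits *Psme1* and *Psme2*, which form the cap that opens the barrel without ATP, were at 87.8 and 215.7 FPKM.

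When BAT siCtrl cells differentiated, the core particle genes rose nearly as a whole, and the regulatory genes rose in part. Of the 44 members tested, 30 were called higher at d3 and 0 lower, where a call required a Benjamini-Hochberg adjusted p under 0.05 in limma over all genes tested and a change of at least 1.3-fold. For comparison, 29.9% of the 13001 genes tested were called higher. The count was 13 of 14 core genes, 10 of 17 regulatory genes and 7 of the 13 other members tested. The median log2 fold change on the log2(FPKM + 1) scale was 0.69 for the core genes and 0.53 for the regulatory genes, against -0.10 over all genes tested, and the counts were 35 of 44 when each change was taken relative to this median. The 7 members that passed the p threshold without reaching 1.3-fold included *Psmb4* (0.31) and *Psmc6* (-0.12).

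*Psma1* stood apart from every other member. Its 3 BAT siCtrl libraries were at 94.6, 94.3 and 96.0 FPKM at d0 and at 794.5, 805.7 and 806.3 FPKM at d3, an 8.45-fold difference of means (log2 fold change 3.07, standard error 0.029, adjusted p = 1.1e-08 in limma). The groups were separated by far more than the spread within each. Its log2 change exceeded the median of the core genes by 2.38, whereas the next core gene, *Psmb5*, exceeded it by 0.73. *Psma1* moved from rank 13 to rank 1 of the 14 core genes and from 4.17% to 17.7% of their summed level. The gene, ENSMUSG00000030751, lies at chr7:114264606-114276118 on the minus strand of GRCm38, with 18 distinct exons in the annotation and no exonic overlap with another gene.

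The other alpha subunits rose less. *Psma6* was at 165.1, 171.3 and 169.6 FPKM at d0 and at 437.0, 451.6 and 443.3 FPKM at d3 in the BAT siCtrl libraries (log2 fold change 1.39, standard error 0.032, adjusted p = 1.0e-07). *Psma5* reached 215.7 FPKM from 90.7 FPKM (log2 fold change 1.24). *Psma3*, *Psma7*, *Psma4* and *Psma2* were all called higher, with log2 fold changes of 0.69, 0.53, 0.52 and 0.47.

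In the beta ring, 6 of 7 genes rose. *Psmb5*, which carries the chymotrypsin-like site and is the target of bortezomib, was at 115.2, 106.0 and 108.3 FPKM at d0 and at 290.3, 296.6 and 299.7 FPKM at d3 (log2 fold change 1.42, standard error 0.042, adjusted p = 2.5e-07). The noncatalytic *Psmb3* was at 118.4, 120.8 and 112.1 FPKM at d0 and at 270.4, 294.3 and 294.2 FPKM at d3 (log2 fold change 1.28, standard error 0.050, adjusted p = 8.8e-07). The libraries of d0 and d3 did not overlap for any of the 14 core genes, against 36.1% of all genes tested that lay wholly above at d3. Of the other catalytic subunits, *Psmb7* (trypsin-like) rose by 1.16 and *Psmb6* (caspase-like) by 0.69 on the log2 scale. *Psmb4*, the most abundant core gene at d0, was at 468.7 FPKM at d0 and 581.9 FPKM at d3 and did not reach 1.3-fold. An annotated microRNA, *Mir686*, shares 109 of the 899 exonic bases of *Psmb5* on the same strand and was listed at 454.0 and 875.8 FPKM, and *Nek6* shares 405 exonic bases of *Psmb7* on the opposite strand, and the share of fragments assigned to each was not tested.

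The regulatory particle is given by role, with no test of a difference between roles. Of the subunits that match the rule, all 3 non-ATPase base subunits and 5 of the 8 lid subunits rose, against 2 of the 6 ATPases. Proteasome components outside the rule, *Adrm1* and *Shfm1* among them, are not part of these counts or of the regulatory sum. *Psmd4*, a ubiquitin receptor of the base, was at 89.3, 77.6 and 73.5 FPKM at d0 and at 193.1, 194.6 and 217.8 FPKM at d3 (log2 fold change 1.32, standard error 0.084, adjusted p = 9.6e-06). The scaffold subunits *Psmd2* and *Psmd1* rose by 0.69 and 0.57 on the log2 scale. Of the lid, *Psmd11*, *Psmd12*, *Psmd3*, *Psmd13* and *Psmd6* rose by 0.44 to 0.86, while *Psmd14*, the deubiquitinase of the lid, was at 132.1 and 162.2 FPKM and did not reach 1.3-fold (0.30). Among the ATPases only *Psmc1* (0.86) and *Psmc4* (0.54) were called. *Psmc6* was at 90.1, 94.1 and 88.2 FPKM at d0 and at 82.7, 83.7 and 84.3 FPKM at d3, and these groups did not overlap (log2 fold change -0.12, standard error 0.039, adjusted p = 0.029), whereas those of *Psmc3* did (-0.05). Of all genes tested, 43.2% lay wholly below at d3.

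**Figure D1:**
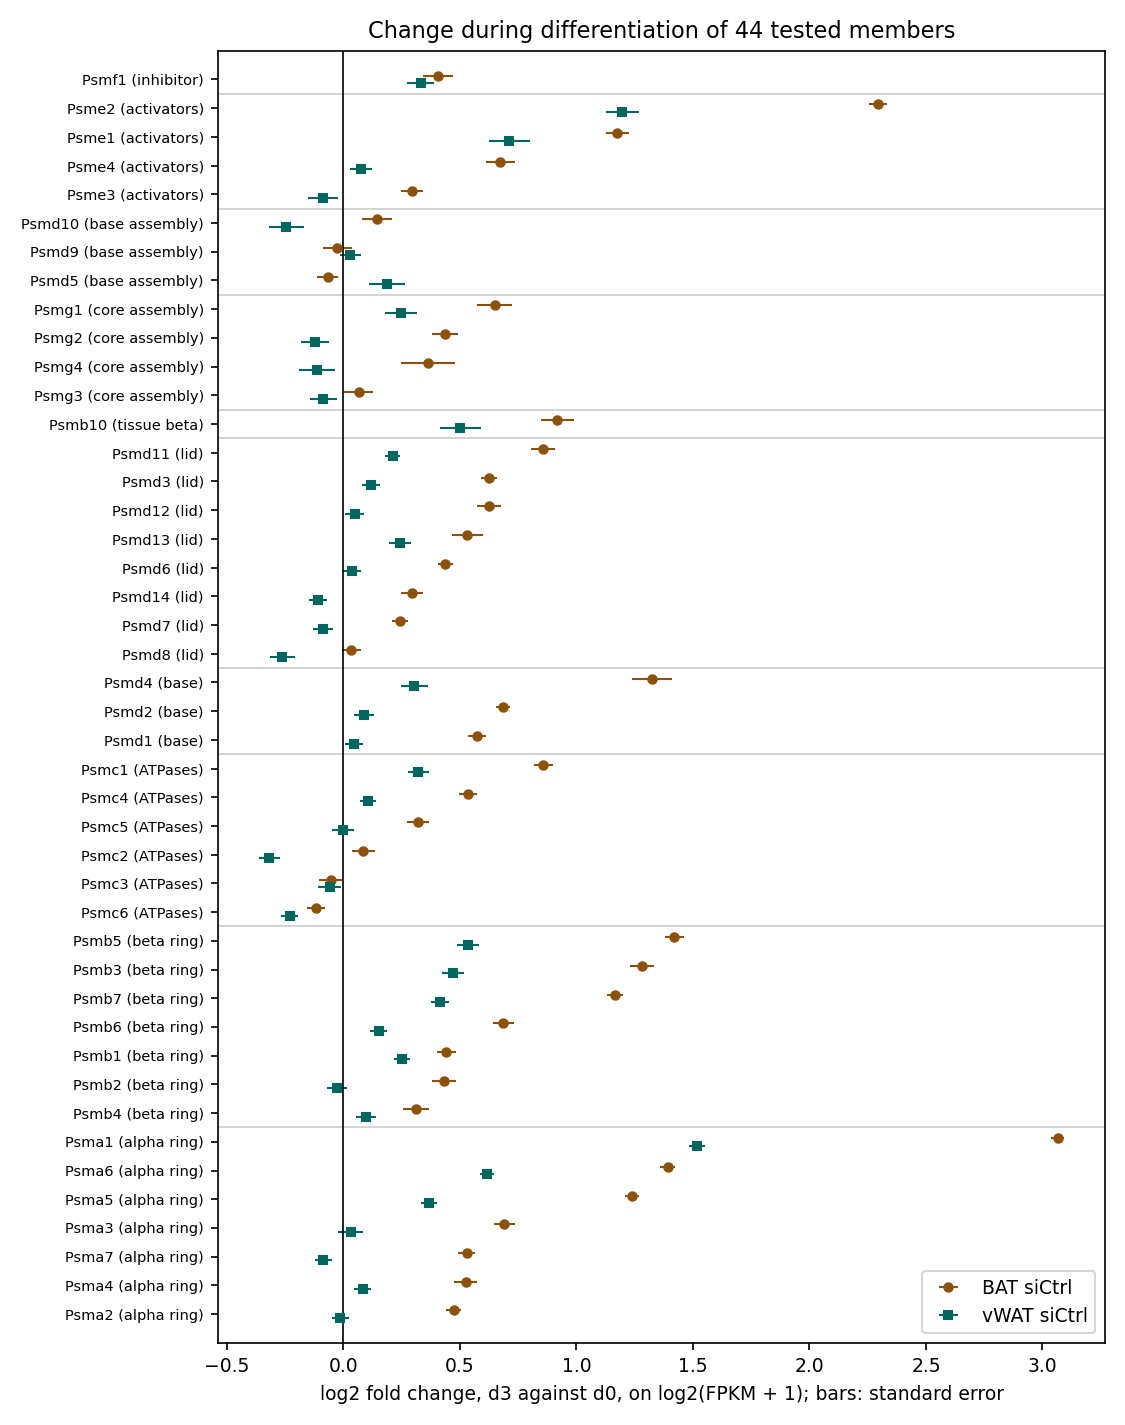
Log2 fold change from d0 to d3 of each of the 44 tested members in BAT siCtrl (brown circles) and vWAT siCtrl cells (green squares), on the log2(FPKM + 1) scale with standard errors, grouped by role. *Psma1* lies at 3.07 in BAT and 1.52 in vWAT, and the BAT point lies to the right of the vWAT point for all 14 core genes.

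Of the members outside both particles, the activators changed most. *Psme2* was at 210.6, 213.0 and 223.6 FPKM at d0 and at 1029, 1088 and 1067 FPKM at d3 in BAT siCtrl, which made it the most abundant member (log2 fold change 2.29, standard error 0.039, adjusted p = 3.9e-08). Its partner *Psme1* rose by 1.18 on the log2 scale, and *Psme4*, which encodes the nuclear cap PA200, rose by 0.67. *Psme3*, the nuclear relative of both, was at 91.5 FPKM at d0 and 112.6 FPKM at d3 and was not called. *Psmb10*, the inducible counterpart of *Psmb7*, rose from 25.7 to 49.5 FPKM, although the other inducible subunits left out by the rule fell, *Psmb8* from 14.4 to 2.92 FPKM and *Psmb9* from 2.99 to 1.28 FPKM. Of the core assembly factors *Psmg1* (0.65) and *Psmg2* (0.44) rose and *Psmg3* and *Psmg4* were not called. None of the base assembly factors *Psmd5*, *Psmd9* and *Psmd10* was called (-0.07 to 0.15). *Psmf1*, the proteasome inhibitor PI31, rose by 0.40.

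These changes shifted the ratio of the summed transcript levels of the particles. The amounts of protein and of assembled particles were not measured in these libraries. The summed level of the 14 core genes was 2222 to 2345 FPKM in the BAT siCtrl libraries at d0 and 4412 to 4618 FPKM at d3, a ratio of 1.99, and that of the 17 regulatory genes was 1745 to 1811 FPKM and 2392 to 2455 FPKM, a ratio of 1.37. The ratio of core to regulatory sum was 1.27 to 1.29 at d0 and 1.84 to 1.88 at d3. Of the gain of the core sum, 31.3% came from *Psma1*, and without it, an alternative chosen after seeing the data, the core sum differed 1.71-fold between the days. Of all FPKM in a library, the 46 members held 0.645% to 0.661% at d0 and 1.05% to 1.06% at d3. Over the same days the summed level of the 6 adipocyte markers went from 2986 to 3252 FPKM to 36920 to 38600 FPKM, that of the 6 precursor markers from 3518 to 3829 FPKM to 709.4 to 821.9 FPKM, and that of the 5 macrophage markers lay between 125.2 and 159.9 FPKM on both days, most of it from *Lyz2*, with 3 of the 4 tested called lower at d3 and *Ptprc* under 1 FPKM in the mean of both days. The 4 endothelial markers summed to 2.18 to 11.2 FPKM. Their part in the result was not tested.

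**Figure D2:**
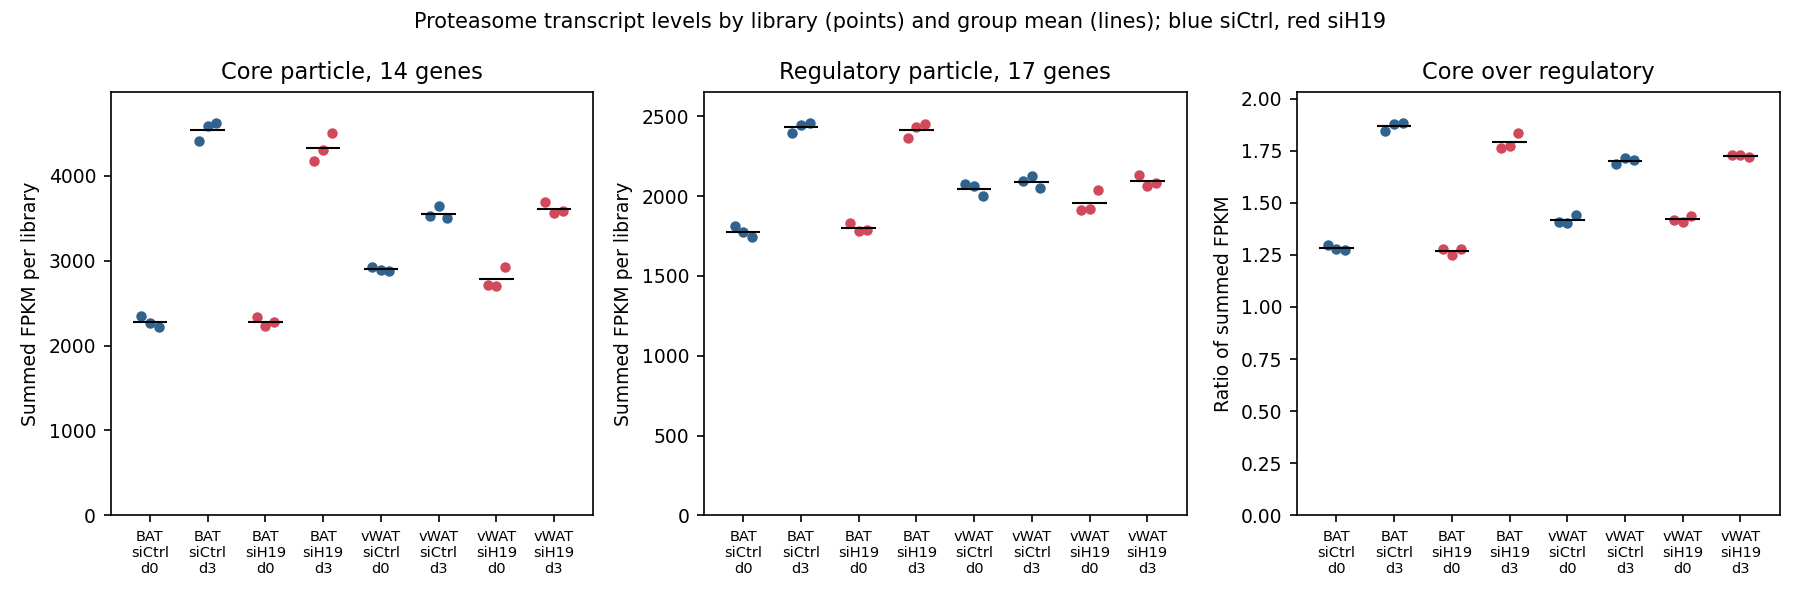
Summed FPKM of the 14 core genes, summed FPKM of the 17 regulatory genes and the ratio of both sums, for each library (points, blue siCtrl, red siH19) and as group means (lines), with axes from 0. The core sum differs between d0 and d3 in all 4 pairs of groups, and the ratio reaches 1.76 to 1.88 in BAT and 1.69 to 1.73 in vWAT at d3.

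In BAT cells with siH19, 28 members were called higher and 0 lower, against 30.8% of the 12962 genes tested that were called higher, and the medians were 0.62 for the core and 0.54 for the regulatory genes (all genes -0.01). *Psma1* was at 96.2, 92.3 and 94.5 FPKM at d0 and at 719.3, 741.2 and 786.4 FPKM at d3 (log2 fold change 2.97, adjusted p = 3.5e-08). *Psme2*, *Psma5*, *Psme1*, *Psma6* and *Psmb10* followed with 2.13, 1.42, 1.35, 1.32 and 1.28. *Psmd4* again changed most of the regulatory genes (1.19). *Psmd8*, a lid subunit, had the smallest value (-0.21) and *Psmb4* the smallest of the core (0.19), both under 1.3-fold.

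In vWAT the same days gave smaller differences. In siCtrl cells 8 members were called higher and 0 lower, against 26.3% of the 13368 genes tested that were called higher, so that the share of members called was below that of all genes. They were *Psma1*, *Psme2*, *Psme1* (log2 fold change 0.71), *Psma6* (0.62), *Psmb5* (0.54), *Psmb10* (0.50), *Psmb3* (0.47) and *Psmb7* (0.41), of which 5 are core genes and 0 regulatory genes. *Psma1* was at 142.2, 141.3 and 140.6 FPKM at d0 and at 403.9, 420.7 and 395.4 FPKM at d3, a 2.88-fold difference (log2 fold change 1.52, standard error 0.034, adjusted p = 3.6e-07). *Psme2* was at 308.5, 258.6 and 297.4 FPKM and at 668.9, 681.6 and 631.7 FPKM (log2 fold change 1.20, standard error 0.071, adjusted p = 1.4e-05). As in BAT, these stood above all other members. The d0 and d3 libraries of both did not overlap, against 36.2% of all genes tested that lay wholly above at d3.

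The median log2 fold change in vWAT siCtrl was 0.20 for the core and 0.04 for the regulatory genes, against 0.01 over all genes tested. The regulatory genes ran from -0.32 for the ATPase *Psmc2* to 0.32 for the ATPase *Psmc1*, and the core genes from -0.09 for *Psma7*. *Psmd8* (-0.26) also lay far below the regulatory median, and its libraries at d3 (132.6 to 146.2 FPKM) all lay below those at d0 (160.6 to 173.3 FPKM). Of all genes tested in vWAT siCtrl, 34.9% lay wholly below at d3. The core sum was 2876 to 2920 FPKM at d0 and 3498 to 3643 FPKM at d3, and the regulatory sum was 1998 to 2076 and 2052 to 2127 FPKM, ranges that overlap. The ratio of the sums was 1.41 to 1.44 at d0 and 1.69 to 1.71 at d3. *Psma1* gave 40.3% of the gain of the core sum, and without it that sum differed 1.14-fold. The adipocyte marker sum was 3965 to 3976 FPKM at d0 and 18840 to 19820 FPKM at d3 in these libraries, a smaller ratio (4.90) than in BAT (12.2).

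After siH19, vWAT cells had 12 of the 44 members called higher between the days, against 28.2% of the 13357 genes tested. The share called higher was thus close to that of all genes. There was 1 member called lower, against 24.5%. The member that fell was *Psmd8* (log2 fold change -0.39, adjusted p = 0.00070). *Psma1* (1.72), *Psme2* (1.10), *Psme1* (0.80), *Psma6* (0.75), *Psmd4* (0.57) and *Psmb5* (0.55) rose most. *Psmb2* had the smallest core value (-0.08). Without the third siH19 library of d0 *Psmd8* was at -0.34 and no longer reached 1.3-fold.

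The difference between the depots in the change from d0 to d3 was tested directly in the 12 siCtrl libraries, with an interaction called at an adjusted p under 0.05. It was higher in BAT for 38 of the 44 members, against 24.9% of the 14111 genes tested, and lower for 1, against 28.1%. All 14 core genes and 15 of 17 regulatory genes were among the 38. The median difference was 0.64 on the log2 scale for the core and 0.40 for the regulatory genes, against -0.04 over all genes. *Psma1* led (1.55, standard error 0.039, adjusted p = 9.0e-10), followed by *Psme2* (1.10), *Psmd4* (1.02), *Psmb5* (0.89), *Psma5* (0.87) and *Psmb3* (0.81). The smallest values were 0.19 for *Psmb1* among the core genes and 0.00 for *Psmc3* among the regulatory genes, the latter with an adjusted p = 0.97. The base assembly factor *Psmd5* was the member with a lower value in BAT (-0.25, adjusted p = 0.034), a call lost in 6 of the 12 fits that each left out a library, named in the closing section. In the same test all 6 adipocyte and all 5 brown adipocyte markers were called higher in BAT. Of the other markers, 5 of 6 for precursors and 4 of 5 for macrophages were called lower. Of the 4 endothelial markers, 1 was called higher and 1 lower. The part of these markers in the result was not tested.

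**Figure D3:**
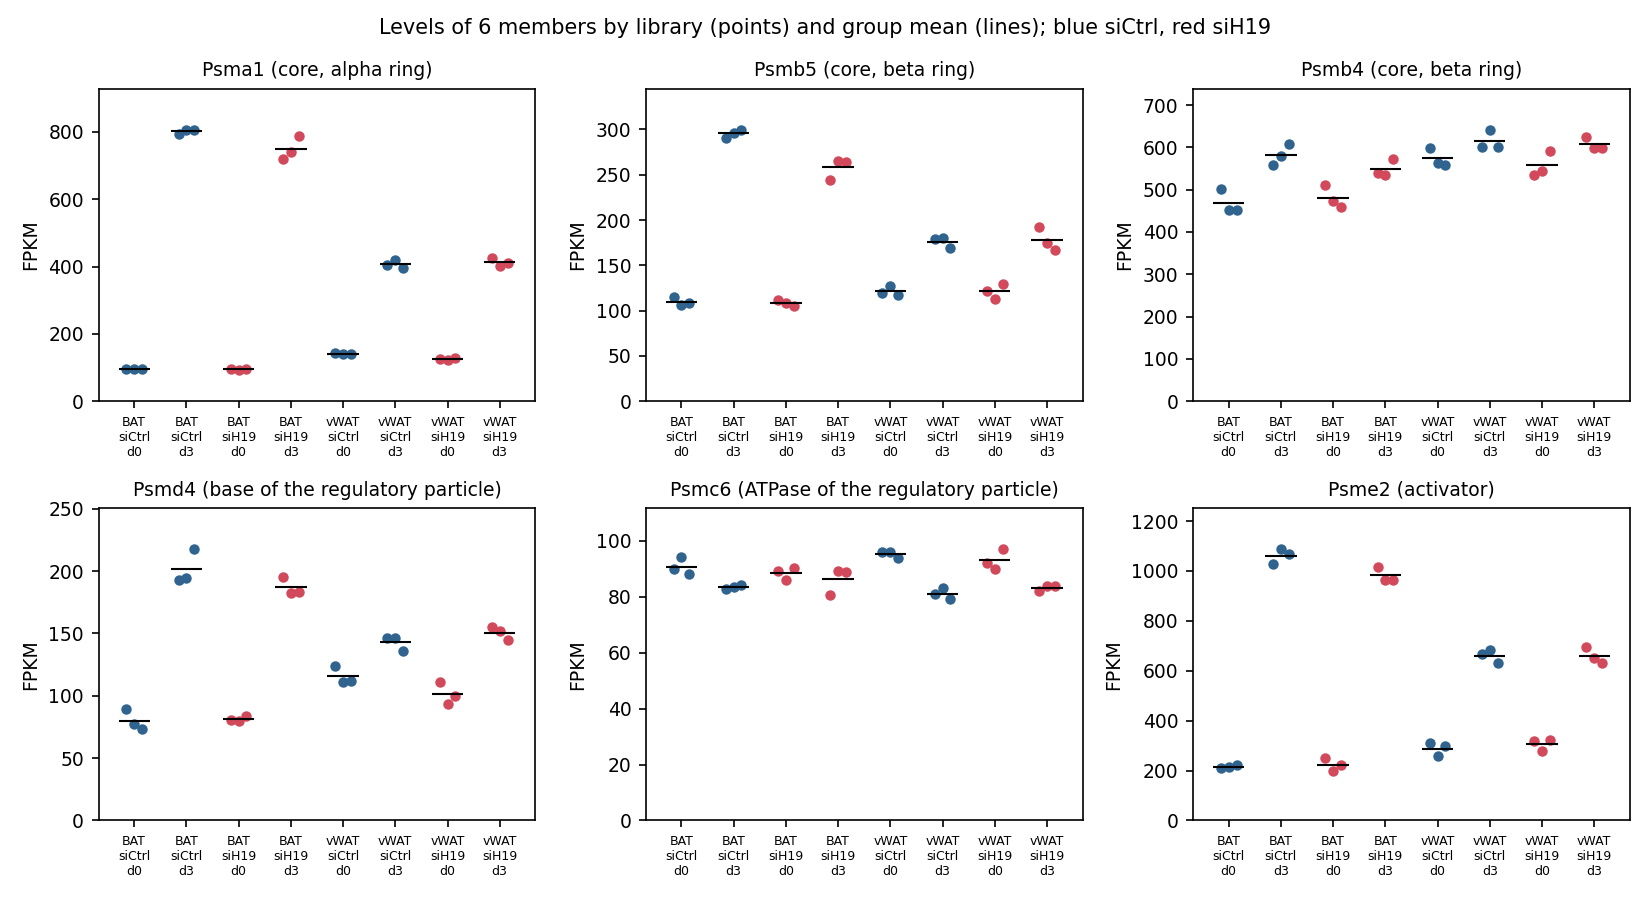
FPKM of *Psma1*, *Psmb5*, *Psmb4*, *Psmd4*, *Psmc6* and *Psme2* in each of the 24 libraries (points, blue siCtrl, red siH19) with group means (lines), on axes from 0. *Psma1* goes from 95.0 to 802.2 FPKM in BAT siCtrl and from 141.4 to 406.6 FPKM in vWAT siCtrl, while *Psmc6* stays between 79.2 and 97.1 FPKM in all libraries.

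The depots were also set against each other on each day in siCtrl cells. All genes tested had a median of -0.13 at d0 and -0.16 at d3 for BAT against vWAT, and trimmed-mean scaling brought these medians to -0.01 and -0.0045. At d0, 10 of the 44 members were called lower in BAT and 0 higher, against 21.0% of the 13139 genes tested called lower. The share of members called lower was thus close to that of all genes. With trimmed-mean scaling 4 members were called lower. That scaling called 3785 of all genes in either direction. The alpha subunits *Psma3*, *Psma7* and *Psma1* were lowest with log2 differences of -0.58, -0.58 and -0.57, followed by *Psmd4* (-0.53), *Psmb10* (-0.50) and *Psme1* (-0.45), of which *Psmb10* and *Psme1* were no longer called with that scaling. The medians were -0.30 for the core and -0.24 for the regulatory genes. *Psmb5* (-0.14) and *Psmd8* (0.01) had the largest values of the core and of the regulatory particle. The macrophage marker sum was 128.2 to 159.9 FPKM in BAT and 272.9 to 304.1 FPKM in vWAT at d0, and its part was not tested.

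At d3 the signs differed from d0. Of the 44 members, 37 were above 0 for BAT against vWAT, compared with 2 at d0, most of them not called on either day. Of all genes tested, 5051 of 13120 were above 0 at d3 and 4492 of 13139 at d0. With trimmed-mean scaling 41 members were above 0 at d3 and 7 at d0. In BAT 11 were called higher, against 16.5% of the 13120 genes tested, and 1 lower, against 32.1%, and with trimmed-mean scaling 19 were higher and 0 lower. That scaling called 6207 of all genes in either direction. *Psma1* was at 802.2 ± 6.61 FPKM (SD, n = 3) in BAT and 406.6 ± 12.9 FPKM in vWAT (log2 difference 0.98, standard error 0.033, adjusted p = 1.6e-06). It was followed by *Psmb5* (0.74), *Psme2* (0.68), *Psmb3* (0.58), *Psme4* (0.58) and *Psma6* (0.57). *Psmd4* had the largest value of the regulatory genes (0.49), and *Psmb4* and *Psmc3* were the smallest of their particles at -0.08 each. *Psmd5* was lower in BAT (-0.44), a call that was lost with trimmed-mean scaling and without the first vWAT siCtrl library (-0.35). The core median was 0.20 and the regulatory median 0.25. The adipocyte marker sum was 36920 to 38600 FPKM in BAT and 18840 to 19820 FPKM in vWAT, and the macrophage marker sum 125.2 to 156.9 and 458.4 to 500.4 FPKM, and their part was not tested.

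Ordered over the 8 groups, *Psma1* was lowest in BAT at d0, at 94.3 FPKM with siH19 and 95.0 FPKM with siCtrl, which overlapped. It was next in vWAT at d0 with 124.5 FPKM (siH19) and 141.4 FPKM (siCtrl), then in vWAT at d3 with 406.6 FPKM (siCtrl) and 412.7 FPKM (siH19), which overlapped, and highest in BAT at d3 with 749.0 FPKM (siH19) and 802.2 FPKM (siCtrl). The coefficient of variation between the 14 core genes was 0.545 to 0.559 in the BAT siCtrl libraries at d3 and 0.566 to 0.616 at d0, and that between the 17 regulatory genes 0.292 to 0.314 and 0.383 to 0.410.

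Knockdown of *H19* was not followed by a called change of any member. None of the 44 was called in any of the 4 comparisons of siH19 with siCtrl, against 1.94% of the 12651 genes tested in BAT at d0, 8.57% of 12500 in BAT at d3, 1.53% of 13063 in vWAT at d0 and 0.0305% of 13097 in vWAT at d3. At an unadjusted p under 0.05 in limma the counts of members were 3, 9, 4 and 1, against 19.6%, 31.3% and 17.6% of all genes tested by that rule in the first 3 comparisons and 1315 of 13097 genes in vWAT at d3. The log2 fold changes of all members lay between -0.36 and 0.21, -0.37 and 0.14, -0.19 and 0.15, and -0.12 and 0.16 in these comparisons. The core medians were -0.01, -0.06, -0.05 and 0.02, and the regulatory medians -0.01, -0.01, -0.07 and -0.00. The medians over all genes tested were -0.03, 0.05, -0.03 and -0.01. All particle medians lay under the change of 1.3-fold that a call required. Trimmed-mean scaling turned the sign of both particle medians in BAT at d0 and of the regulatory median in vWAT at d3. In BAT at d3 that scaling gave medians of -0.12 for the core, -0.07 for the regulatory genes and 0.0011 over all genes.

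In BAT at d3, 3 members had an adjusted p under 0.05 without the minimum fold, against 16.2% of all genes tested by that rule, and all were lower with siH19. *Psmb5* was at 290.3, 296.6 and 299.7 FPKM with siCtrl and 244.1, 265.3 and 264.6 FPKM with siH19 (log2 fold change -0.20, standard error 0.044, adjusted p = 0.029). *Psmg4*, a core assembly factor, was at 21.5, 19.3 and 22.0 FPKM and 15.3, 17.1 and 15.4 FPKM (-0.37, standard error 0.076, adjusted p = 0.022). *Psme1* was at 202.7, 197.8 and 197.5 FPKM and 170.8, 173.6 and 178.8 FPKM (-0.19, standard error 0.035, adjusted p = 0.016). The groups did not overlap for any of these, but they were picked by adjusted p, so that this adds no support. Of all 44 members, 11 lay wholly below with siH19, against 13.1% of all genes tested, and 2 wholly above, against 24.2%. *Psmg4* lay next to the limit of 1.3-fold and was called with a pseudocount of 0.1, with trimmed-mean scaling and without the second siCtrl or the second siH19 library.

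*Psma1* in BAT at d3 was at 794.5, 805.7 and 806.3 FPKM with siCtrl and 719.3, 741.2 and 786.4 FPKM with siH19, which did not overlap (log2 fold change -0.10, standard error 0.040, adjusted p = 0.15). Of all genes tested there, 13.1% lay wholly below with siH19. The remaining core values in BAT at d3 ran from -0.14 for *Psmb7* to 0.09 for *Psma7*, and the regulatory values from -0.11 for *Psmd4* to 0.14 for *Psmc3*, with *Psmd7* next at 0.08. The core to regulatory ratio was 1.76 to 1.84 with siH19 and 1.84 to 1.88 with siCtrl. The adipocyte marker sum was 33650 to 35940 FPKM with siH19 and 36920 to 38600 FPKM with siCtrl, and 0 of the 6 markers were called. Most of it came from *Fabp4*, at 25710 FPKM (siH19) and 27820 FPKM (siCtrl) in the group means. The precursor marker sum was 1065 to 1181 and 709.4 to 821.9 FPKM, with 4 of the 5 tested called higher. All 5 brown adipocyte markers were called lower with siH19. The macrophage marker sum was 78.8 to 89.8 FPKM with siH19 and 125.2 to 156.9 FPKM with siCtrl, without overlap, and 2 of the 4 markers tested were called lower. Their part in these values was not tested.

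In BAT at d0 *Psme1* had the lowest value (-0.36, standard error 0.051, adjusted p = 0.026, under 1.3-fold). The core genes ran from -0.17 for *Psma5* to 0.07 for *Psmb2*, with *Psma1* at -0.01, and the regulatory genes from -0.06 for *Psmd6* to 0.21 for *Psmd8*. The adipocyte marker sum was 1510 to 2025 FPKM with siH19 and 2986 to 3252 FPKM with siCtrl at d0, and the macrophage marker sum 97.3 to 98.1 and 128.2 to 159.9 FPKM, and their part was not tested. In vWAT at d0 *Psma1* was the lowest core gene, at 142.2, 141.3 and 140.6 FPKM with siCtrl and 124.6, 121.7 and 127.2 FPKM with siH19, which did not overlap (-0.18, standard error 0.037, adjusted p = 0.070). Of all genes tested there, 16.2% lay wholly below with siH19. The highest core value was 0.06 for *Psmb2*, and the regulatory genes ran from -0.19 for *Psmd4* to 0.12 for *Psmd8*. There the adipocyte marker sum was 2323 to 2625 FPKM with siH19 and 3965 to 3976 FPKM with siCtrl, and its part was not tested. In each depot at d0, 4 of the 6 adipocyte markers were called lower with siH19. In vWAT at d3 the values ran from -0.01 for *Psmb4* to 0.08 for *Psmb1* in the core and from -0.07 for *Psmd13* to 0.08 for *Psmd4* in the regulatory particle, with *Psma1* at 0.02.

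**Figure D4:**
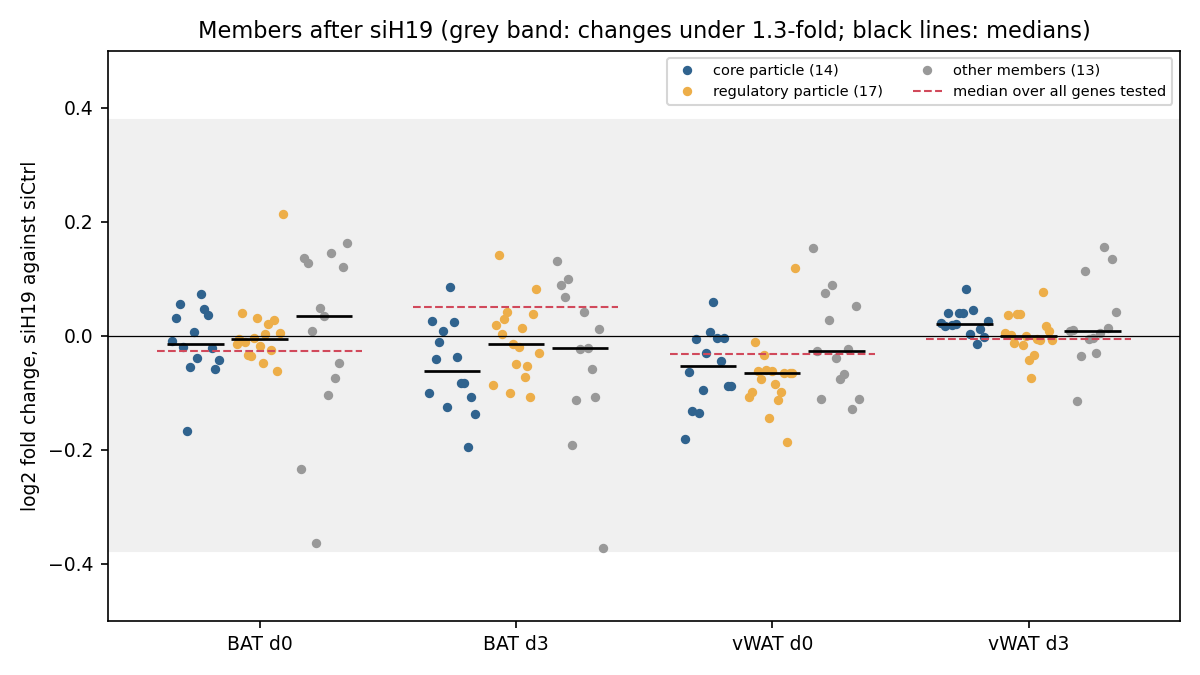
Log2 fold change of siH19 against siCtrl of the core (blue, 14), regulatory (yellow, 17) and other members (grey, 13) in each depot and day, with the median of each set (black lines) and of all genes tested (dashed red line), the grey band covering changes under 1.3-fold. All points lie within the band, the lowest being *Psmg4* in BAT at d3 (-0.37) and *Psme1* in BAT at d0 (-0.36).

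Whether the siH19 effect differed between depots or days was tested as an interaction. Between the depots at d3 it differed for 2 members, both lower in BAT, against 3.52% of the 13762 genes tested. These were *Psmg4* (-0.41, standard error 0.093, adjusted p = 0.020) and *Psma6* (-0.17, standard error 0.044, adjusted p = 0.040). *Psma1* was at -0.12 (adjusted p = 0.18), *Psmb5* at -0.21, *Psmd4* at -0.18, *Psma7* at 0.05 and *Psmc3* at 0.14, and these were not called. Between the days in BAT the effect was more positive at d3 for 1 member, *Psma5* (0.17, standard error 0.041, adjusted p = 0.0255), against 7.79% of the 13575 genes tested, and more negative for 1, *Psmd8* (-0.24, standard error 0.058, adjusted p = 0.026), against 1.27%. *Psma1* was at -0.09 (adjusted p = 0.30), *Psmb5* at -0.18, *Psmd4* at -0.13, *Psma7* at 0.08 and *Psmc3* at 0.10. With trimmed-mean scaling the counts were 6 in place of 2 between the depots, and 0 more positive and 4 more negative between the days, so that *Psma5* was no longer called (0.073). Over all genes, 1402 of 13762 and 860 of 13575 passed with that scaling. All 4 calls were also lost in fits that left out a library, as given in the closing section.

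The wider pathway was followed through 37 genes outside the rule. They were listed as further proteasome components and cofactors (12), ubiquitin and its activating enzymes (6), and shuttle and p97 factors (11). The last list (8) held NFE2L1, its relative NFE2L2 and factors that control either of them. In BAT siCtrl from d0 to d3, 14 of the 37 rose, against 29.9% of all genes tested, and 8 fell, against 35.3%, with a median of 0.19. *Ubqln1*, a shuttle that brings ubiquitinated proteins to the proteasome, rose from 51.8 to 206.5 FPKM (log2 fold change 1.98), and *Faf1* (1.16), *Nploc4* (0.71) and *Ufd1l* (0.64) rose with it, while *Ubqln2* fell (-0.79). *Nfe2l1* rose from 152.9 to 260.5 FPKM (0.76) and *Ngly1*, the glycosidase that processes its protein, from 9.55 to 18.1 FPKM (0.86), with *Keap1* at 0.61. *Syvn1* (-1.52), *Nfe2l2* (-1.24) and *Sel1l* (-0.60) fell. Among the proteasome cofactors *AI314180* (0.74), *Uchl5* (0.65), *Ube3c* (0.53), *Adrm1* (0.43) and *Zfand5* (0.38) rose and *Psmb8*, *Psmb9* and *Akirin2* fell. *Uba6*, a ubiquitin-activating enzyme, fell (-1.11).

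In vWAT siCtrl 5 of the 37 rose, against 26.3% of all genes tested, and 11 fell, against 23.9%, with a median of -0.01. *Psmb9* (0.93), *Ubqln1* (0.70), *Faf1* (0.64) and *Keap1* (0.45) were among those that rose, and *Nfe2l1* was at 143.5 FPKM at d0 and 160.5 FPKM at d3, not called. *Syvn1* (-1.11), *Nfe2l2* (-0.94) and *Uba6* (-0.81) were among those that fell most, and *Txnl1*, *Ubqln4*, *Fbxw7*, *Ubqln2*, *Nsfl1c*, *Akirin2* and *Psmb8* fell by 0.38 to 0.53. The change differed between the depots for 22 of the 37. It was higher in BAT for 16, against 24.9% of all genes tested, among them *Ubqln1* (1.27), *Ngly1* (1.04) and *Nfe2l1* (0.60), and lower for 6, against 28.1%, among them *Psmb9* (-1.69) and *Psmb8* (-1.60). None of the 37 was called for siH19 in BAT at either day or in vWAT at either day, and the interaction was called for *Nfe2l2* between the depots (0.37, against 7.02% of all genes called higher) and for *Nfe2l2* (0.29) and *Ubb* (0.26) between the days in BAT (7.79%).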

How the data were processed

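RNA-seq of 24 mouse libraries (8 groups of 3) was analysed, with groups taken from the sample labels, where siCtrl libraries are titled siKO but described as given a non-targeting siRNA. The authors deposited 1 table of expression values without read counts, which are read as FPKM because the study's methods name Cufflinks and the column sums differ between libraries (710800 to 841500). Per the labels' processing notes and the methods, reads were aligned to GRCm38 with TopHat2 2.0.10 and quantified with Cufflinks, whose version is 2.2.1 in the labels and another in the methods. The labels list a further aligner, STAR, without a version, and its part in the deposited values is not known. The labels also describe paired-end and the methods single-end reads, and which holds is not known. FPKM are relative values, so a rise in abundant genes lowers the others. The labels describe a strand-marking kit, whereas whether counting used strand is not given in the sources used here. All columns were used (0 left out).

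Each comparison was fitted with limma 3.58.1 (R 4.3.3, intensity trend) on log2(FPKM + 1) of its own 6 libraries (interactions 12), for genes with at least 1 FPKM in at least 3 of them, which understates changes of low genes. Calls required a Benjamini-Hochberg adjusted p under 0.05 and, except for interactions, at least 1.3-fold. Alternatives were a pseudocount of 0.1, no filter, no minimum fold, trimmed-mean scaling, a replicate block, all 24 libraries in the fit, and leaving out each library. Replicates correlated with Pearson r of 0.981 to 0.985 across genes, and at most 0.0046% of their values were identical. The fit was tested on simulated data. Python 3.11.15, numpy 2.4.6, pandas 2.3.3 and matplotlib 3.10.9 were used for the summaries and plots.

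The members and gene lists were chosen with earlier results of these data known. Named with values were *Psma1*, in each comparison up to 6 called members in each direction by size, the largest and smallest change of core and regulatory particle, the 2 members of each farthest from its median, and called genes of the pathway lists, of which some are counted but not reported here by name. Members given beyond this in the day comparisons serve to complete each role. All 46 members were found in the GENCODE annotation of GRCm38, 36 with the deposited coordinates, and 11 share exonic bases with another gene. Promoter windows are from RefSeq (GRCm38.p6). *Ecpas*, *Sem1* and *Ufd1* were read under their older symbols *AI314180*, *Shfm1* and *Ufd1l*.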

Additional observations from a re-analysis of the deposited data

Results flagged for a closer look

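The change from d0 to d3 differed between the depots in siCtrl cells for 39 members by the test of the interaction itself (limma, adjusted p under 0.05), 38 of them higher in BAT. Of all genes tested, 24.9% were called higher in BAT and 28.1% lower. The differences on the log2 scale were 1.55 for *Psma1*, 1.10 for *Psme2*, 1.02 for *Psmd4*, 0.89 for *Psmb5*, 0.87 for *Psma5*, 0.81 for *Psmb3* and -0.25 for *Psmd5*. The value of *Psmd5* lost its call without BAT siCtrl d0 replicate 1 or 2 (-0.24 and -0.25), BAT siCtrl d3 replicate 2 or 3 (-0.26 and -0.23) and vWAT siCtrl d0 replicate 1 or 3 (-0.25 and -0.24), and with trimmed-mean scaling (-0.13). Markers of adipocytes, brown adipocytes, precursors and macrophages were also called in this interaction, and their part in these differences was not tested.

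The siH19 effect at d3 differed between the depots for 2 members, *Psmg4* (-0.41) and *Psma6* (-0.17, BAT minus vWAT). Of all genes tested, 3.52% were called lower in BAT and 7.02% higher. Leaving out vWAT siCtrl replicate 3 or vWAT siH19 replicate 1 left 0 calls. Leaving out BAT siCtrl replicate 2 or 3, BAT siH19 replicate 1 or 2, vWAT siCtrl replicate 2, or vWAT siH19 replicate 2 or 3 left 1. Among the 12 fits that each left out a library, the call of *Psmg4* was lost only without vWAT siCtrl replicate 3 (-0.38) and without vWAT siH19 replicate 1 (-0.40), and that of *Psma6* in 10 of them.

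The siH19 effect in BAT differed between the days for 2 members, *Psma5* (0.17) and *Psmd8* (-0.24, d3 minus d0). Of all genes tested, 7.79% were called more positive at d3 and 1.27% more negative. There were 0 calls without siCtrl d0 replicate 2 or siCtrl d3 replicate 2. There was 1 without siCtrl d0 replicate 3, siCtrl d3 replicate 1 or 3, siH19 d0 replicate 1 or 2, or siH19 d3 replicate 1 or 3, and there were 3 without siCtrl d0 replicate 1. The call of *Psma5* was also lost with trimmed-mean scaling (0.073).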

How the results depend on the processing

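Counts of members called stayed within 1.5 times of those reported in 134 of 168 alternative fits, and 34 moved. Without the minimum fold the siH19 comparisons gave 1 (BAT d0) and 3 (BAT d3) in place of 0, the day comparisons in vWAT 24 (siCtrl) and 25 (siH19), and the depot comparisons 33 at d0 and 31 at d3. By that rule 395 of 12651 (BAT d0) and 2023 of 12500 (BAT d3) of all genes passed for siH19. For the vWAT days these were 8788 of 13368 (siCtrl) and 8881 of 13357 (siH19). For the depots they were 6386 of 13139 (d0) and 8500 of 13120 (d3). Trimmed-mean scaling gave 1 for siH19 in BAT d3, 4 and 19 for the depots at d0 and d3, 6 for depot by siRNA and 4 for day by siRNA (0 higher, 4 lower). In the same order, 1041, 3785, 6207, 1402 and 860 of all genes were called with it. A pseudocount of 0.1 gave 1 for siH19 in BAT d3, and no filter on low values gave 1 for depot by siRNA. The same scaling moved the BAT siCtrl day medians to 0.79 (core) and 0.64 (regulatory). *Psma1* turned sign for siH19 in BAT d0 with that scaling (0.022) and without the second siH19 library (0.0059), and the fits without each library gave -0.0235 to 0.0059. Leaving out each library gave 0 to 1 members for siH19 in BAT d3, 29 to 31 and 27 to 29 for the BAT day comparisons, 8 to 9 and 12 to 14 in vWAT, 8 to 13 and 12 to 13 for the depots, 0 to 2 for depot by siRNA, 0 to 3 for day by siRNA and 37 to 39 for depot by day.

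Deviations of same-numbered libraries correlated at only -0.14 to 0.09 over all comparisons, which cannot exclude that they were prepared together. In BAT against vWAT siCtrl at d3, all 3 libraries correlated best with their own number (0.03 to 0.08). A replicate block left 1 member for depot by siRNA, 38 for depot by day and changed no other count of members. Fragment numbers are unknown, so no counting intervals or detection limits are given.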

Other observations

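The genes next to the 6 members that rose most in BAT siCtrl cells were read from the deposited coordinates, as the nearest gene on each side with a mean of at least 1 FPKM in a siCtrl group. The choice was made after the values were seen. Of these 12 neighbours, 6 were called higher at d3, against 29.9% of all genes tested, 4 lower, against 35.3%, and 2 were not called. The 6 include *Mir686*, which lies within *Psmb5*, shares 109 exonic bases with it and so is not a gene beside it. *Copb1*, a coat protein gene that follows *Psma1* on the same strand at a distance of 9895 bases, fell from 99.7 to 73.4 FPKM in BAT siCtrl. *Emc9*, a subunit gene of a membrane insertion complex that follows *Psme2* on the same strand at 2139 bases and shares 14 exonic bases with *Psme1* on the other strand, rose from 10.5 to 181.8 FPKM in BAT and was at 11.9 and 78.5 FPKM in vWAT siCtrl. *Rnf31*, on the other side of *Psme2* at 595 bases and on the opposite strand, was at 8.79 FPKM at d0 and 7.83 FPKM at d3 in BAT and was not called. Beside *Psmb3*, *Pcgf2* and *Pip4k2b* both fell, by 0.55 and 0.74 on the log2 scale.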
